A study of Mus musculus with 71 samples.

Results

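Mylip encodes an E3 ubiquitin ligase, and Vldlr and Lrp8 encode 2 of the lipoprotein receptors that it marks for degradation. These 3 genes, out of 37620 in the count table, were followed in every library of a series on the miR-17~92 microRNA cluster in C57BL/6 mouse embryos at embryonic day 9.5, with 20 to 22 somites. The genes were chosen by name, as Mylip and its known receptor substrates, because Mylip had already been seen to be high in embryos without the cluster. The difference between Full-KO and Wild-type in Mylip is therefore given as a description, with no test. Earlier results of these data were also known when Vldlr and Lrp8 were listed. Their adjusted p in this contrast are therefore descriptive, not independent tests. Each embryo was divided into tail bud (TB), heart (H) and the remaining embryo (E, called the rest here). Total RNA was sequenced as single reads of 50 bases. The 8 genotypes were Wild-type, with an intact locus; Full-KO, the miR-17~92 knockout; Delta_17, without miR-17 and miR-20a; Delta_18, without miR-18a; Delta_19, without miR-19a and miR-19b-1; Delta_92, without miR-92a-1; Delta_17_18, without miR-17, miR-20a and miR-18a; and Delta_17_18_92, which in addition lacks miR-92a-1 and retains only the miR-19 hairpins. All genotypes come from timed matings on the same strain, and no other allele or agent is named for any group. Each of the 24 groups had 3 libraries, described as biological triplicates, except Delta_17_18_92 in the rest with 2.

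Mylip, also known as IDOL, binds the cytoplasmic tail of lipoprotein receptors through its FERM domain, and its RING domain adds ubiquitin that sends the receptor to the lysosome. Its transcription is driven by the sterol-sensing LXR nuclear receptors. Vldlr and Lrp8 bind Reelin and certain lipoproteins, pass the Reelin signal to the adaptor Dab1 in migrating neurons, and are both substrates of Mylip as proteins. MicroRNAs lower the level and translation of transcripts whose 3′ untranslated region pairs with their seed, and the hairpins of miR-17~92 fall into 4 seed families that act on largely separate sets of transcripts. Counts of reads show transcript levels only, and receptor protein was not measured.

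The mature microRNAs of the cluster are shown because each genotype is defined by which of these seeds it has lost. They come from RefSeq (GRCm38.p6), where all 6 hairpins lie on chromosome 14, and capitals mark the seed, bases 2 to 8.
miR-17-5p: cAAAGUGCuuacagugcagguag
miR-20a-5p: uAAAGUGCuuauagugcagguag
miR-18a-5p: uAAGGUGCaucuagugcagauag
miR-19a-3p: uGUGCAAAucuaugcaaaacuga
miR-19b-3p: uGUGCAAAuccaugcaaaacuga
miR-92a-3p: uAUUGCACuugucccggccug

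MiR-17 and miR-20a share 1 seed and miR-19a and miR-19b share another, while miR-18a and miR-92a each have their own. Other mouse hairpins carry the same seeds and are not named as deleted in any genotype. The miR-17 seed is also in miR-93-5p and miR-106b-5p of chromosome 5 and in miR-20b-5p and miR-106a-5p of chromosome X, the miR-18 seed in miR-18b-5p of X, and the miR-19 seed in a second miR-19b hairpin on X. The miR-92 seed is also in miR-25-3p of chromosome 5, miR-363-3p and a second miR-92a hairpin of X, miR-92b-3p and miR-367-3p of chromosome 3, and miR-32-5p of chromosome 4.

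The 3′ untranslated regions of the 3 genes were searched for the complements of these seeds, and the sites found are shown because they differ between the genes. The annotation was GENCODE on GRCm38, in which Mylip lies at chr13:45389742-45412022, Vldlr at chr19:27216484-27254231 and Lrp8 at chr4:107802261-107876840, each on the plus strand. The motifs, read on the transcript strand, were GCACTTT for miR-17, GCACCTT for miR-18, TTTGCAC for miR-19 and GTGCAAT for miR-92, and each is called an 8mer where an A follows and a 7mer-m8 where it does not. Lines give 23 bases of sequence with the matched bases in capitals.
Mylip, miR-18 7mer-m8, chr13:45410819-45410841: atggcccaaccgtggGCACCTTt
Mylip, miR-92 8mer, chr13:45411695-45411717: agctgacctcatcggGTGCAATA
Mylip, miR-19 8mer, chr13:45411809-45411831: ttatgcatttgtttcTTTGCACA
Mylip, miR-17 7mer-A1, chr13:45411734-45411756: tagaagcctacactgtCACTTTA
Vldlr, miR-17 7mer-m8 (first), chr19:27249392-27249414: tctctggccaaatatGCACTTTc
Vldlr, miR-17 7mer-m8 (second), chr19:27249509-27249531: aatcactattcttaaGCACTTTg
Lrp8, miR-17 8mer, chr4:107875686-107875708: acaagttcaacacaaGCACTTTA

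Mylip held matches of 3 families in its longer 3′ untranslated region of 1512 bases (transcript Mylip-201), at positions 324, 1200 and 1314 for miR-18, miR-92 and miR-19. The shorter form of 535 bases (Mylip-202) held only the miR-18 match. No 7mer-m8 or 8mer of miR-17 was in either form. A weaker type of match, CACTTTA (7mer-A1), was looked for after the values were known and was found once, at position 1240 of Mylip-201, and in 8.967% of the longest untranslated regions of 19717 genes. Vldlr held 2 miR-17 matches and none of the other families, and because they lie at positions 267 and 384 they were in all 3 annotated forms of 587, 722 and 5091 bases. Lrp8 held 1 miR-17 8mer, at position 3390 of the longest form of 4529 bases (Lrp8-202, whose coding sequence is annotated as incomplete at its start), and no match in the 4 shorter forms of 35 to 1588 bases. Over the longest untranslated region of each of 19717 genes, 12.132% held a miR-17 match, 1.724% held at least 2, and 7.937%, 11.462% and 6.69% held a match of miR-18, miR-19 and miR-92. The untranslated regions of Vldlr and Lrp8 are longer than those of 96.4% and 95.1% of these genes, against 64.2% for Mylip, and longer regions hold more matches of any motif.

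Library totals ran from 13532012 to 27477273 counts, with a median of 21103719, and the 3 genes drew 116 to 3665 counts per library. Levels are given as CPM, read counts scaled to library size with TMM factors. Markers separated the tissue labels: the 6 tail bud markers summed to 650 to 1100 CPM in tail bud libraries and at most 27.2 elsewhere, and the 6 cardiomyocyte markers to 29008 to 37101 CPM in heart and at most 525 elsewhere. The host transcript Mir17hg ran from 105 to 137 CPM in Wild-type tail bud and from 340.1 to 348 in Full-KO tail bud. It lay above the wild-type range in all 3 tissues in every mutant but Delta_18, which was below it in heart (41.3 to 41.9 against 43.2 to 47.1 CPM) and overlapped it elsewhere. The rows of all 6 hairpin genes held 0 counts, so the table does not measure the deletions themselves. In Delta_19, replicate 1 was higher than replicates 2 and 3 for Vldlr in all 3 tissues and for Lrp8 in tail bud and the rest. Results that rest on it are given with and without it (that comparison was added after the values were seen). It was left out for these values, not for a known fault. Under a rule of at least 0.5 log2 from both other replicates in every tissue, Vldlr did not pass. Of 11690 genes, 10 higher and 2 lower passed in this library, against 14 lower in Delta_17 replicate 3. Nothing states that libraries with the same number come from the same embryo.

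In wild-type embryos the ligase and its substrates were distributed differently over the 3 tissues. Per kilobase of merged exon, Mylip averaged 13.2 CPM per kb in tail bud, 3.93 in the rest and 3.31 in heart. Lrp8 averaged 7.35, 4.47 and 0.764 CPM per kb in the same order, and Vldlr 2.48, 1.63 and 3.37. On this scale Mylip was the highest of the 3 in tail bud and Lrp8 the lowest in heart, where Mylip and Vldlr were nearly equal. The order depends on the merged exon lengths, 3233, 10068 and 10514 bases for Mylip, Vldlr and Lrp8. In CPM without that division, Lrp8 (77.3) exceeded Mylip (42.8) in tail bud. In heart Vldlr (33.9) then exceeded Mylip (10.7), and Lrp8 (8.04) was still lowest. Which transcript forms were present was not measured.

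**Figure D1:**
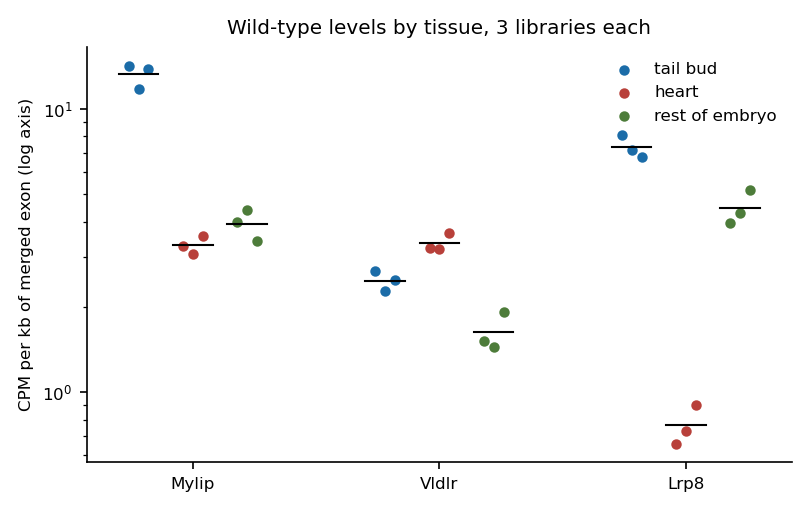
Wild-type levels of the 3 genes in CPM per kb of merged exon on a log axis, with 1 point per library (3 per tissue) and a bar at the mean. Mylip is highest in tail bud at 13.2 CPM per kb, Lrp8 falls to 0.764 in heart, and Vldlr is highest in heart at 3.37.

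Mylip in the 3 wild-type tail bud libraries stood at 45.9, 37.9 and 44.6 CPM, against 10.6, 9.96 and 11.5 CPM in heart and 12.9, 14.2 and 11.0 CPM in the rest. The tail bud libraries were all far above the others, while heart and rest overlapped. Heart was lower than tail bud by a log2 difference of −2.01 ± 0.11 (SE; edgeR quasi-likelihood test, Benjamini-Hochberg adjusted p = 4.64e-09), and tail bud was higher than the rest by 1.75 ± 0.11 (adjusted p = 7.94e-08). The heart and rest values differed by −0.26 ± 0.12 (adjusted p = 0.0673), a call gained without wild-type replicate 3 of the rest (−0.35, 0.0219) or replicate 2 or 3 of tail bud. Differences between these tissues were common: of 16922 genes tested, 68.6% were called between heart and tail bud, 68.1% between heart and rest and 29.8% between tail bud and rest, in either direction.

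Vldlr was highest in heart, and like Mylip it was higher in tail bud than in the rest. Its wild-type libraries held 32.6, 32.4 and 36.7 CPM in heart, 27.0, 22.9 and 25.1 CPM in tail bud and 15.2, 14.5 and 19.4 CPM in the rest. No library of one tissue reached into the range of another. Heart was higher than tail bud by 0.43 ± 0.11 (edgeR adjusted p = 0.00347) and than the rest by 1.04 ± 0.11 (2.97e-06), and tail bud was higher than the rest by 0.61 ± 0.11 (0.00114).

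Lrp8 was low in the heart. Wild-type heart libraries held 6.94, 7.69 and 9.47 CPM, against 85.1, 75.3 and 71.4 CPM in tail bud and 41.6, 45.0 and 54.5 CPM in the rest. Every tail bud library lay above every library of the rest, and both lay above heart without overlap. The tail bud mean was 9.61 times and the rest mean 5.85 times the heart mean. The heart difference was −3.27 ± 0.13 against tail bud (edgeR adjusted p = 2.19e-10) and −2.56 ± 0.13 against the rest (2.47e-09), and tail bud exceeded the rest by 0.72 ± 0.11 (0.00036). In tissue pieces of mixed cells, fewer cells that express a gene and less RNA per cell cannot be told apart.

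Mylip was higher in mutants than in wild type across most of the allelic series, with the highest level in Full-KO. In tail bud the Full-KO libraries held 110.0, 110.0 and 141 CPM, a mean of 120.2 ± 17.6 (SD, n = 3) against 42.8 ± 4.28 in Wild-type. In heart they held 18.2, 20.4 and 20.0 CPM (19.5 ± 1.13 against 10.7 ± 0.759), and in the rest 25.7, 26.9 and 28.0 CPM (26.9 ± 1.16 against 12.7 ± 1.58). Every knockout library lay above every wild-type library of its tissue, and above every library of the 6 partial alleles as well. The means were 2.81, 1.83 and 2.12 times those of Wild-type in tail bud, heart and rest, and the fitted log2 differences were 1.48 ± 0.11, 0.88 ± 0.12 and 1.08 ± 0.08 (SE). These are the values for which Mylip was chosen. In the same contrast 10.4%, 3.91% and 6.66% of all tested genes were called in tail bud, heart and rest.

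**Figure D2:**
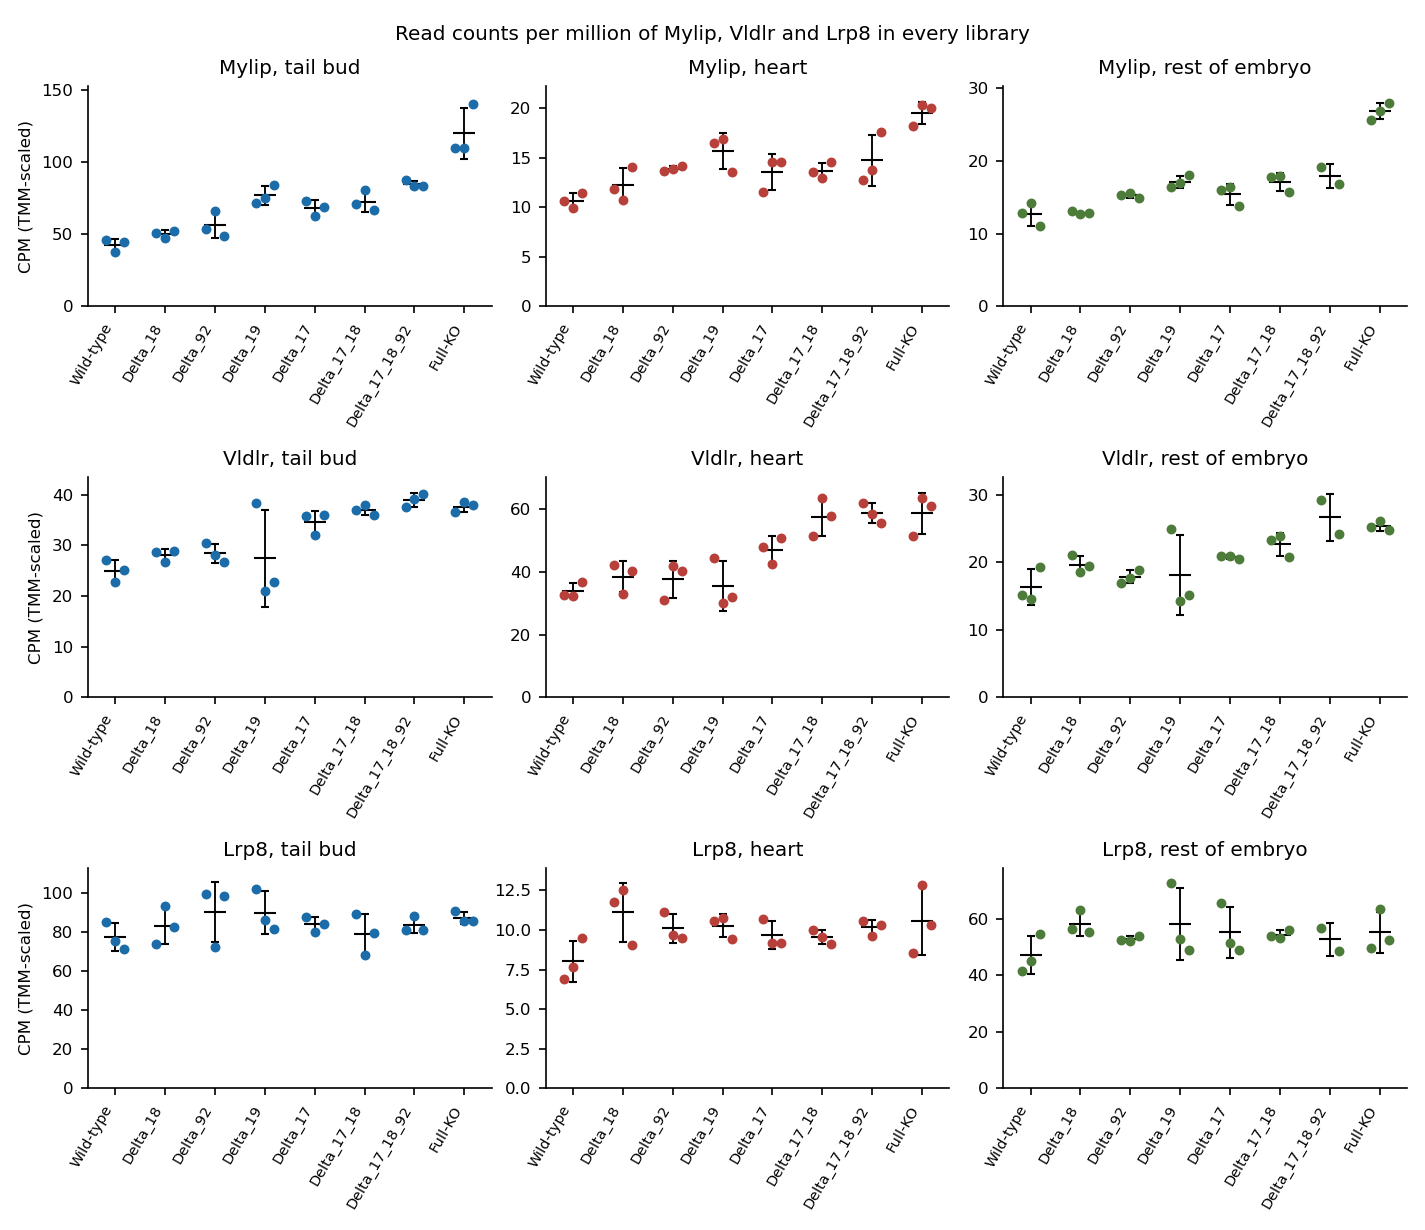
CPM of Mylip, Vldlr and Lrp8 (rows) in tail bud, heart and rest (columns), with 1 point per library, a bar at the group mean and whiskers of 1 SD (n = 3, and 2 for Delta_17_18_92 in the rest). Mylip climbs from 42.8 CPM in Wild-type to 120.2 in Full-KO in tail bud, Vldlr is highest in Full-KO and the alleles that lack miR-17, and Lrp8 groups largely overlap.

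Partial deletions placed Mylip between these ends. In tail bud, Delta_19 libraries held 71.6, 75.4 and 84.2 CPM, Delta_17 libraries 73.4, 62.6 and 69.3 CPM, and both groups lay wholly above Wild-type without overlap. Delta_17_18 held 70.9, 80.6 and 66.8 CPM and Delta_17_18_92 held 87.4, 83.3 and 83.3 CPM, so the allele that keeps only miR-19 was the highest of the partial alleles in mean. Delta_92 at 53.9, 66.2 and 48.8 CPM and Delta_18 at 51.1, 47.6 and 52.6 CPM lay nearest to Wild-type, though every one of their libraries was above its range.

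Against Wild-type in tail bud, Mylip rose in 4 of the 6 partial alleles. These contrasts share their wild-type libraries with the one for which Mylip was chosen. The log2 differences were 0.84 ± 0.11 in Delta_19 (edgeR adjusted p = 0.000225, where 1.03% of genes were called), 0.67 ± 0.11 in Delta_17 (0.00145; 1.77% called), 0.77 ± 0.11 in Delta_17_18 (0.000292; 8.31% called) and 0.98 ± 0.11 in Delta_17_18_92 (1.09e-05; 5.57% called). Delta_92 and Delta_18 gave 0.40 ± 0.11 (0.175; 0.359% called) and 0.24 ± 0.11 (0.386; 0.129% called), neither past the threshold of 0.05, though DESeq2 called Delta_92 (0.0315). Fitting only the 2 groups compared ended the calls of Delta_17 (0.68, edgeR adjusted p = 0.0845) and Delta_17_18 (0.76, 0.0544). Primitive erythroid markers, all 4 detected, summed to 3543 to 5314 CPM in Wild-type tail bud, 755 to 3356 in Full-KO and 1416 to 2892 in Delta_17_18_92, without overlap with Wild-type. Their part in the Mylip values was not tested.

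In heart the values were lower and closer together. Mylip stood at 16.5, 16.9 and 13.6 CPM in Delta_19 and at 12.8, 13.8 and 17.7 CPM in Delta_17_18_92. Delta_92 held 13.7, 13.9 and 14.2 CPM, Delta_17_18 13.5, 12.9 and 14.6, Delta_17 11.5, 14.6 and 14.6, and Delta_18 11.9, 10.8 and 14.1. All groups but Delta_18 lay above the wild-type range, by little in Delta_17. Mylip rose in Delta_19 by 0.56 ± 0.12 (edgeR adjusted p = 0.0261; 0.406% of genes called) and in Delta_17_18_92 by 0.45 ± 0.12 (0.048; 1.89% called). The other 4 differences ran from 0.20 in Delta_18 to 0.39 in Delta_92, with none past the threshold (called shares 0.555% for Delta_17, 0.0418% for Delta_18, 0.0716% for Delta_92 and 1.12% for Delta_17_18). Neither heart call held when single libraries were left out: Delta_19 went to adjusted p = 0.153 without its replicate 1, 0.159 without its replicate 2, 0.11 without Wild-type replicate 1 and 0.191 without Wild-type replicate 2. Delta_17_18_92 went to 0.30 (adjusted p = 0.288) without its replicate 3 and past 0.05 without its replicate 2, Delta_19 replicate 1 or any 1 of the wild-type libraries. The latter call also ended with only the 2 groups fitted (0.104) or with DESeq2 size factors (0.0507).

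In the rest Mylip rose in 3 of the 6 partial alleles. Delta_19 held 16.4, 17.0 and 18.0 CPM, Delta_17_18 17.8, 17.9 and 15.7, and Delta_17_18_92 19.1 and 16.8 in its 2 libraries. All of these lay above Wild-type, as did Delta_92 at 15.3, 15.6 and 14.9 CPM. Delta_17 at 16.0, 16.5 and 13.8 CPM overlapped Wild-type, and Delta_18 at 13.1, 12.7 and 12.8 CPM lay inside its range. The differences were 0.44 ± 0.08 in Delta_19 (edgeR adjusted p = 0.00336; 1.88% of genes called), 0.43 ± 0.08 in Delta_17_18 (0.00149; 4.44% called) and 0.49 ± 0.09 in Delta_17_18_92 (0.000855; 5.62% called). Delta_17 gave 0.28 ± 0.08 (0.117; 1.56% called), and was called without its replicate 3 (0.36, adjusted p = 0.0405) or Wild-type replicate 2 (0.37, 0.0414). Delta_92 gave 0.26 ± 0.08 (0.258; 0.588% called) and Delta_18 0.02 ± 0.09 (0.961; 0.36% called). Cardiomyocyte markers, all 6 detected, summed to 359 to 525 CPM in Delta_17_18_92 in this tissue and to 212 to 282 in Wild-type. In the same libraries the 4 endothelial markers summed to 353 to 376 CPM against 314 to 328 in Wild-type, and the 4 primitive erythroid markers to 1963 to 2030 against 2394 to 3585, without overlap. Delta_92 in the rest also lay above Wild-type in cardiomyocyte markers (293 to 347 CPM) and endothelial markers (331 to 350 CPM). The part of these markers in the Mylip values was not tested.

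Across all tissues, 18 of 21 mutant groups had every Mylip library above every wild-type library (7 of 7 tail bud groups, 6 heart groups and 5 of the rest). The same was true of 12 groups for Vldlr (4 of 7 in each tissue) and of 4 for Lrp8. Over all genes of the tail bud, that separation was met by 6.08% in Delta_92, 6.48% in Delta_18, 8.53% in Delta_19, 8.83% in Delta_17, 11.8% in Delta_17_18_92, 12.7% in Delta_17_18 and 14.3% in Full-KO. In heart the shares were 4.89%, 5.35%, 7.26%, 7.45%, 12.3%, 7.82% and 11.1% in the same order of genotypes, and in the rest 7.43%, 7.98%, 7.73%, 8.86%, 19.0%, 12.7% and 13.0%. All of these groups share the same 3 wild-type libraries per tissue, so they are not independent of one another. The Full-KO groups are counted among them although Mylip was chosen on that contrast.

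Deletions were also compared step by step, with no wild-type library in the difference itself. The Wild-type and Full-KO libraries still entered the shared fit of each tissue, and so the filter, the scaling and the estimate of spread. Removing miR-17 and miR-20a in embryos that already lacked miR-18a (Delta_17_18 against Delta_18) went with a rise of Mylip by 0.53 ± 0.11 in tail bud (edgeR adjusted p = 0.0185; 0.8% of genes called) and 0.42 ± 0.08 in the rest (0.00453; 1.42% called). The heart difference was 0.18 ± 0.12 (0.666; 0.519% called). The tail bud call ended without any 1 of 5 of its 6 libraries (adjusted p up to 0.15), and with no filter on low counts (0.53, 0.076), while that of the rest stayed. Removing miR-18a after miR-17 (Delta_17_18 against Delta_17) gave Mylip differences of 0.09 in tail bud (95% interval −0.12 to 0.30), 0.03 in heart (−0.21 to 0.27) and 0.15 in the rest (−0.01 to 0.32), none past the threshold, where 0.0%, 0.0179% and 0.137% of genes were called. Removing miR-92a-1 as well (Delta_17_18_92 against Delta_17_18) gave 0.21 ± 0.11 (adjusted p = 0.497), 0.07 ± 0.12 (0.822) and 0.06 ± 0.09 (0.849) in the same order, with 0.67%, 0.693% and 2.52% of genes called. Removing the last family, miR-19, took Mylip from Delta_17_18_92 to Full-KO levels, with differences of 0.50 ± 0.11, 0.43 ± 0.12 and 0.59 ± 0.09, and 0.341%, 3.76% and 1.78% of all genes were called there. No test is given for that step, because it uses the knockout libraries on which Mylip was chosen.

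A model over the 6 partial alleles alone, without Wild-type and Full-KO, assigned Mylip a change for each lost seed family. Its terms start from an intercept fitted on these alleles, not from Wild-type. A rise shared by all 6 alleles therefore enters neither the terms nor their sum. In tail bud the miR-19 term was 0.68 ± 0.09 (edgeR adjusted p = 0.000683; 1.12% of 16718 genes called) and the miR-17 term 0.52 ± 0.06 (3.25e-05; 4.7% called), so Mylip rose with the loss of either. The miR-92 term was 0.23 ± 0.06 (0.0574; 2.6% called) and the miR-18 term 0.08 ± 0.06 (0.641; 0.341% called). In the rest the miR-19 term was 0.41 ± 0.09 (0.0151; 1.16% called) and the miR-17 term 0.29 ± 0.06 (0.00237; 5.1% called), and miR-92 and miR-18 gave 0.19 ± 0.06 (0.0946; 3.07% called) and 0.03 ± 0.06 (0.872; 0.403% called). In heart no Mylip term passed the threshold with edgeR, 1 of 4 had an unadjusted p under 0.05, and DESeq2 called 0. The heart terms were 0.32 ± 0.12 for miR-19 (0.268; 0.718% called), 0.12 ± 0.08 for miR-17 (0.643; 1.76% called), 0.13 ± 0.08 for miR-92 (0.503; 1.03% called) and −0.03 ± 0.08 for miR-18 (0.971; 0.0241% called). DESeq2 also called the tail bud miR-92 term (0.23, adjusted p = 0.00583). The miR-19 term rests on the 3 Delta_19 libraries of a tissue. Without replicate 3 of Delta_19 its value in the rest was 0.37 (adjusted p = 0.08), and without replicate 1 it was 0.44 (0.0243). Of the families with an 8mer or 7mer-m8 in Mylip, miR-19 had called terms in tail bud and the rest, and miR-92 and miR-18 had none with edgeR. The miR-17 terms were called in the same tissues with neither type of match in Mylip. Whether any of the matches acts was not tested.

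**Figure D3:**
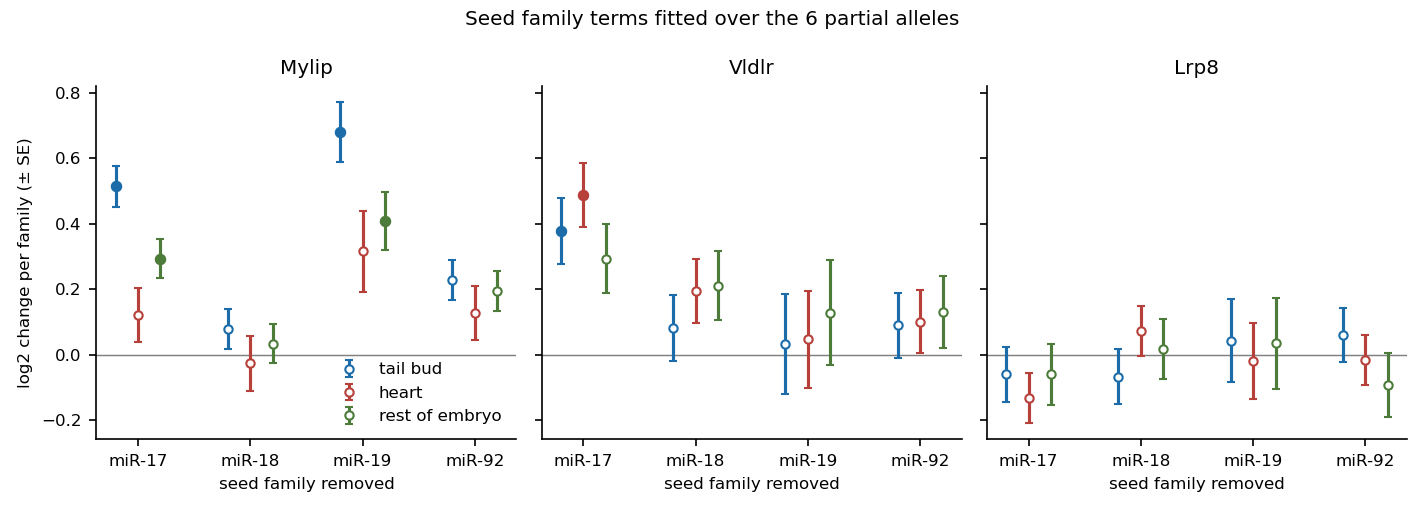
Log2 change per lost seed family (± SE) fitted over the 6 partial alleles, for Mylip, Vldlr and Lrp8 in 3 tissues (17 or 18 libraries each), with filled points past an adjusted p of 0.05. Mylip has filled points for miR-17 and miR-19 in tail bud and rest, Vldlr for miR-17 in tail bud and heart, and Lrp8 has none.

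Vldlr, the receptor with 2 miR-17 matches, was higher in Full-KO in all 3 tissues. Full-KO libraries held 36.5, 38.5 and 37.9 CPM in tail bud (37.6 ± 1.02, SD, n = 3, against 25.0 ± 2.09 in Wild-type), 51.3, 63.3 and 61.0 CPM in heart (58.5 ± 6.40 against 33.9 ± 2.40) and 25.2, 26.2 and 24.7 CPM in the rest (25.4 ± 0.724 against 16.4 ± 2.63). No knockout library reached down into the wild-type range. Vldlr rose by 0.58 ± 0.14 in tail bud (edgeR adjusted p = 0.00985; 10.4% of genes called), 0.80 ± 0.14 in heart (0.0025; 3.91% called) and, in the rest, by 0.62 ± 0.15 (0.0209; 6.66% called). Earlier results of these data were known when Vldlr was listed, so these adjusted p are descriptive. Without Delta_19 replicate 1, which enters the estimate of spread, the differences were the same (0.58, 0.80 and 0.63) and the adjusted p were 4.04e-06, 0.000187 and 6.13e-06. With it, leaving out any 1 of 5 of the 6 Full-KO and Wild-type libraries ended the call in the rest (adjusted p up to 0.0991), and leaving out Wild-type replicate 3 ended that in tail bud (0.0538). In these tail bud libraries the primitive erythroid markers were lower in Full-KO (755 to 3356 CPM) than in Wild-type (3543 to 5314), and their part was not tested.

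In tail bud and heart, Vldlr in each library of the partial alleles without miR-17 lay above those that keep it, apart from 1 Delta_19 library per tissue. In tail bud, Delta_17 held 35.7, 32.0 and 36.0 CPM, Delta_17_18 37.0, 38.0 and 35.9, and Delta_17_18_92 37.6, 39.1 and 40.2, all above the wild-type libraries and in the range of Full-KO or close to it. Delta_18 at 28.7, 26.7 and 28.9 CPM and Delta_92 at 30.4, 28.2 and 26.7 CPM overlapped Wild-type. Delta_19 held 38.3 CPM in replicate 1 and 21.1 and 22.9 CPM in replicates 2 and 3, so that 1 library matched Full-KO and the others lay at or under Wild-type.

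In heart the same 3 alleles were high. Delta_17 held 48.0, 42.4 and 50.7 CPM, Delta_17_18 51.3, 63.5 and 57.6, and Delta_17_18_92 61.9, 58.4 and 55.6, with no overlap with Wild-type. Delta_18 at 42.2, 32.9 and 40.3 CPM and Delta_92 at 30.9, 41.8 and 40.1 CPM overlapped it. Delta_19 held 44.4, 29.9 and 32.0 CPM, with replicate 1 again the high one. In the rest, Delta_17 held 21.0, 21.0 and 20.5 CPM, Delta_17_18 23.4, 23.9 and 20.8, and Delta_17_18_92 29.2 and 24.3. Delta_18 at 21.1, 18.6 and 19.4 CPM and Delta_92 at 17.0, 17.7 and 18.9 CPM overlapped Wild-type, and Delta_19 held 25.0, 14.3 and 15.2 CPM.

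**Figure D4:**
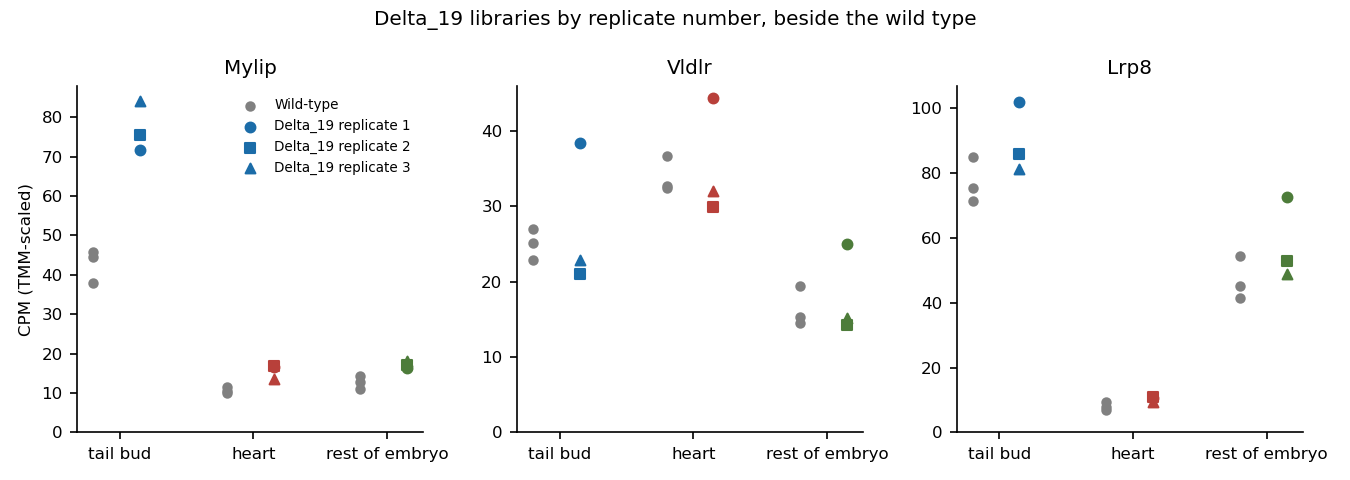
CPM of the 3 genes in Delta_19 by replicate number (circle, square and triangle for replicates 1, 2 and 3) beside the 3 wild-type libraries (grey) of each tissue. For Vldlr, replicate 1 stands at 38.3, 44.4 and 25.0 CPM, above all wild-type libraries, and the other replicates at or under them.

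Against Wild-type, Vldlr rose in 5 of 18 comparisons with partial alleles, in Delta_17_18 and Delta_17_18_92, while DESeq2 and edgeR with no filter on low counts each called 8. In Delta_17_18 the difference was 0.56 ± 0.14 in tail bud (edgeR adjusted p = 0.0177) and 0.78 ± 0.14 in heart (0.00764), with 0.47 ± 0.16 in the rest (0.107). In Delta_17_18_92 it was 0.63 ± 0.14, 0.77 ± 0.14 and 0.69 ± 0.17 (0.00739, 0.00455 and 0.0214). The shares of all genes called in these contrasts were 8.31%, 1.12% and 4.44% for Delta_17_18 and 5.57%, 1.89% and 5.62% for Delta_17_18_92. Delta_17 gave 0.46 ± 0.14, 0.48 ± 0.14 and 0.34 ± 0.16 (adjusted p = 0.105, 0.206 and 0.48; called shares 1.77%, 0.555% and 1.56%). DESeq2 called Delta_17 in tail bud (0.46, 0.0192) and heart (0.47, 0.0342), edgeR with only the 2 groups called it in heart (0.48, 0.00578), and edgeR with no filter called it in heart (3.91e-07) and in the rest (0.00383). The Delta_18, Delta_19 and Delta_92 differences ran from 0.07 to 0.26, none past the threshold. The call of Delta_17_18 in tail bud ended with only the 2 groups fitted (0.55, edgeR adjusted p = 0.0646), and with them Delta_17_18 was called in the rest (0.00519). Primitive erythroid markers were lower in Delta_17_18_92 in tail bud and in the rest, and cardiomyocyte and endothelial markers higher in the rest, without overlap with Wild-type (values above). Their part in the Vldlr values was not tested.

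Setting aside Delta_19 replicate 1, a library picked by its values in these genes, changed which Vldlr differences were called. The differences between other groups stayed, and their SE fell, in tail bud from 0.14 to 0.07. The count rose from 5 to 8 of 18 comparisons. Delta_17 then rose in tail bud (0.47 ± 0.07, edgeR adjusted p = 0.000238) and in the rest (0.34 ± 0.09, 0.0278), with 0.48 ± 0.11 in heart (0.0584), and Delta_17_18 also rose in the rest (0.47 ± 0.09, 0.000798). Delta_19 itself turned from 0.12, 0.07 and 0.15 in tail bud, heart and rest with all libraries to −0.19, −0.12 and −0.15 without replicate 1, none past the threshold either way. Calls that ended when another library was left out were Delta_17_18 in tail bud (without its replicate 2, adjusted p = 0.073, or Wild-type replicate 3, 0.0833), Delta_17_18 in heart (without Wild-type replicate 1, 0.0643) and Delta_17_18_92 in the rest (without its replicate 1, 0.194, or Wild-type replicate 1 or 2, both 0.0819).

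Of the single steps, that of miR-17 had the largest Vldlr difference in tail bud and heart. Removing miR-17 and miR-20a on top of miR-18a gave 0.40 ± 0.14 in tail bud (edgeR adjusted p = 0.32; 0.8% of genes called), 0.59 ± 0.14 in heart (0.0657; 0.519% called) and 0.21 ± 0.15 in the rest (0.754; 1.42% called), and none passed the threshold with all libraries. The heart difference was called by DESeq2 (0.60, 0.0017), by edgeR with no filter (0.58, 1.14e-11) and without Delta_17_18 replicate 1 (0.68, 0.0481), and that of tail bud with only the 2 groups fitted (0.40, 0.00971). Without Delta_19 replicate 1 the values were 0.40 ± 0.07 (0.00252), 0.59 ± 0.11 (0.0129) and 0.20 ± 0.08 (0.353). In heart, Delta_17_18 replicate 2, the highest of its group for Vldlr (63.5 CPM), had 25770 genes detected, against 21189 to 22789 in the other heart libraries. Primitive erythroid markers in heart summed to 3129 to 10358 CPM in Delta_18, 898 to 7128 in Delta_17_18 and 1061 to 2998 in Wild-type. The part of either in the heart step was not tested. The step from Delta_17_18_92 to Full-KO was −0.05 (95% interval −0.32 to 0.21) in tail bud, 0.02 (−0.24 to 0.29) in heart and −0.07 (−0.39 to 0.26) in the rest. In the family model the miR-17 term of Vldlr was 0.38 ± 0.10 in tail bud (adjusted p = 0.0447; 4.7% called), 0.49 ± 0.10 in heart (0.0162; 1.76% called) and 0.29 ± 0.11 in the rest (0.14; 5.1% called). Without Delta_19 replicate 1 the same terms were 0.38 ± 0.04 (1.04e-06), 0.49 ± 0.08 (0.00189) and 0.29 ± 0.06 (0.00118). In 15 of 18 fits that left out 1 library, the adjusted p of the tail bud term was above 0.05. In heart the term went to 0.42 (0.0617) without Delta_18 replicate 2.

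The other 3 families had no called term for Vldlr. Those of miR-18 were 0.08, 0.20 and 0.21 in tail bud, heart and rest, and those of miR-92 were 0.09, 0.10 and 0.13. The miR-19 terms were 0.03, 0.05 and 0.13 with all libraries and −0.28 ± 0.07 (edgeR adjusted p = 0.0755), −0.15 ± 0.13 (0.75) and −0.17 ± 0.10 (0.55) without Delta_19 replicate 1, so their sign turned with that library. The 2 matches printed above are of miR-17, the family whose term was called in tail bud and heart. Whether Vldlr responds through them was not tested. Lrp8 also holds a miR-17 match but had no called miR-17 term. Mylip had called miR-17 terms in tail bud and the rest with only the weaker type of match.

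Lrp8, the other receptor, was called different from Wild-type in none of the 7 mutants in any tissue by edgeR with the filter on low counts. As for Mylip and Vldlr, its Wild-type mean was the lowest of the 8 genotypes in all 3 tissues. Why the wild-type means of all 3 genes were lowest was not tested. In heart the Full-KO libraries held 8.53, 12.9 and 10.3 CPM against 6.94, 7.69 and 9.47 in Wild-type, and the lowest knockout library lay inside the wild-type range. In tail bud they held 90.9, 85.5 and 85.6 CPM against 85.1, 75.3 and 71.4, above Wild-type by a narrow margin, and in the rest 49.6, 63.3 and 52.6 CPM against 41.6, 45.0 and 54.5, overlapping. The log2 differences were 0.16 ± 0.12 in tail bud (edgeR adjusted p = 0.399), 0.22 ± 0.15 in the rest (0.473) and 0.42 ± 0.14 in heart (0.0917). In heart the call was gained without Full-KO replicate 1 (0.53, adjusted p = 0.0397) or Wild-type replicate 3 (0.56, 0.0471). With no filter on low counts edgeR called Full-KO in heart (0.41, 0.049) and in the rest (0.23, 0.00376).

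Of 18 Lrp8 comparisons of partial alleles with Wild-type, edgeR called 0, DESeq2 called 0, and 4, all in heart, had an unadjusted p under 0.05. Their log2 differences ran from 0.02 to 0.48. With no filter on low counts edgeR called 5 of the 18, of which 4 were in the rest. The heart values were 10.7, 9.16 and 9.17 CPM in Delta_17, 11.8, 12.5 and 9.04 in Delta_18, 10.6, 10.8 and 9.43 in Delta_19, and 11.2, 9.67 and 9.52 in Delta_92. Delta_17_18 held 9.97, 9.56 and 9.12 CPM and Delta_17_18_92 10.5, 9.65 and 10.3. Only Delta_92 and Delta_17_18_92 lay wholly above the wild-type heart libraries. Across the other tissues Lrp8 ranged from 68.2 to 102.1 CPM over the mutant tail buds and from 48.6 to 72.6 CPM over the mutant rest, and the highest value of each was Delta_19 replicate 1.

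None of the 12 family terms of Lrp8 was called by edgeR or by DESeq2, and 0 had an unadjusted p under 0.05. They ran from −0.13 to 0.07. These terms leave out any rise shared by the 6 partial alleles, whose heart differences from Wild-type ran from 0.265 to 0.476. The miR-17 terms were −0.06 ± 0.08 in tail bud (95% interval −0.22 to 0.10), −0.13 ± 0.08 in heart (−0.28 to 0.02) and −0.06 ± 0.09 in the rest (−0.24 to 0.12), although the longest form of Lrp8 holds the miR-17 8mer printed above. The table counts reads per gene, so which forms were present in these tissues was not measured. Lrp8 overlaps 2 antisense genes of the annotation that have rows in the table, with 0 exon bases in common.

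The terms fitted on partial alleles can be summed and set beside the observed Full-KO difference, which they did not use. For Mylip the sum was 1.50 ± 0.18 beside an observed 1.48 ± 0.11 in tail bud, 0.54 ± 0.25 beside 0.88 ± 0.12 in heart and 0.93 ± 0.19 beside 1.08 ± 0.08 in the rest. For Vldlr it was 0.58 ± 0.30 beside 0.58 ± 0.14, 0.83 ± 0.29 beside 0.80 ± 0.14 and 0.76 ± 0.33 beside 0.62 ± 0.15. Without Delta_19 replicate 1 the Vldlr sums were 0.27 ± 0.13, 0.63 ± 0.24 and 0.46 ± 0.18, and those of Mylip 1.55 ± 0.18, 0.49 ± 0.26 and 0.97 ± 0.19. For Lrp8 the sums were −0.03 ± 0.25, −0.10 ± 0.23 and −0.10 ± 0.29 beside 0.16, 0.42 and 0.22. This is a description with no test. Within the partial alleles the single measure of departure from additivity (1 degree of freedom) was called for none of the 3 genes in any tissue by edgeR, with 0 of 9 at an unadjusted p under 0.05. For Mylip in the rest it was −0.33 ± 0.17 (edgeR unadjusted p = 0.0556, adjusted p = 0.676). Its interval of −0.66 to −0.0075 left out 0. Delta_19 enters this measure only through the estimate of spread, so additivity of the miR-19 term could not be tested. Over all genes the departure was called for 0.012%, 0.0121% and 0.023% in tail bud, heart and rest.

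**Figure D5:**
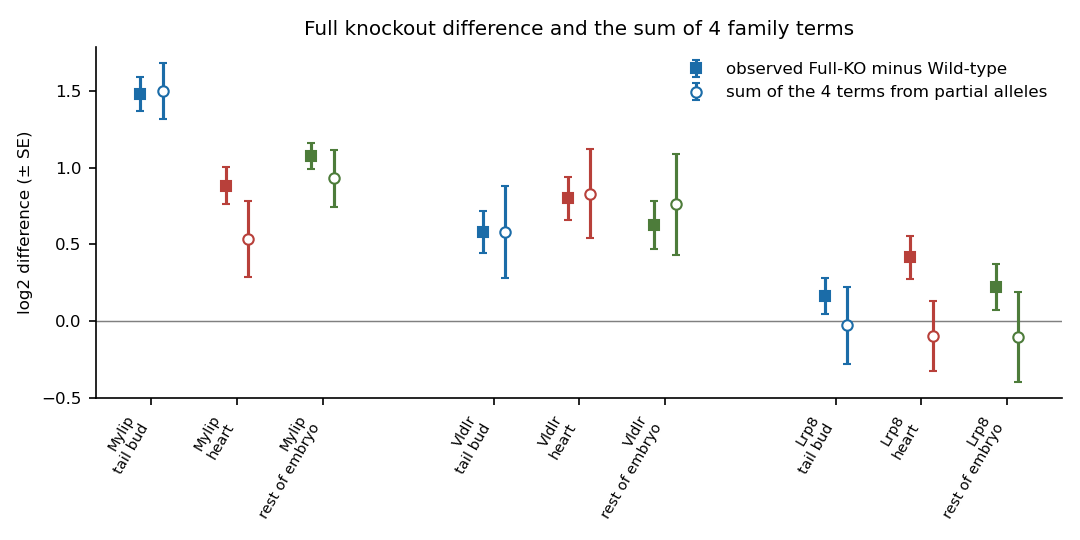
Observed log2 difference of Full-KO and Wild-type (squares) and the sum of the 4 family terms from the partial alleles (open circles), ± SE, by gene and tissue. In tail bud Mylip the points are 1.48 and 1.50, and the Vldlr sums have the widest bars, 0.29 to 0.33.

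Whether the effects differed between tissues was tested in a fit over all 71 libraries, which treated them as independent. For Vldlr the Full-KO effect in heart minus that in tail bud was 0.20 ± 0.21 (edgeR adjusted p = 0.83), heart minus rest 0.16 ± 0.21 (0.934) and tail bud minus rest −0.04 ± 0.21 (0.984). For Lrp8 the same differences were 0.24 ± 0.21 (0.788), 0.19 ± 0.21 (0.926) and −0.05 ± 0.18 (0.969). For Mylip they were −0.62 ± 0.15, −0.21 ± 0.16 and 0.41 ± 0.15, given without a test since they rest on the knockout contrast. For the steps that do not use that contrast (Delta_17_18 against Delta_18 and Delta_17_18_92 against Delta_17_18), Mylip differed between tissues in 0 of 6 comparisons with edgeR and 0 with DESeq2, and in 1 at an unadjusted p under 0.05. That 1 was the miR-17 step, lower in heart than in tail bud by −0.36 ± 0.15 (adjusted p = 0.802). Of 18875 genes, 0.223%, 0.159% and 0.0% were called for the Full-KO effect in these 3 pairs of tissues, 0.0053%, 0.0053% and 0.0% for the miR-17 step and 0.0%, 0.0371% and 0.0% for the miR-92 step.

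Several other receptors of the family were also higher in Full-KO. In the Full-KO tail bud, 5 of 8 tested receptors of the family rose and none fell, with a median log2 difference of 0.27 (−0.01 over all genes; 5.93% of all genes called higher). Sorl1, a sorting receptor, rose from 32.6 to 47.7 CPM (0.54 ± 0.11, edgeR adjusted p = 0.00208). The endocytic receptors Lrp1 (0.43 ± 0.09, 0.00318) and Lrp2 (0.43 ± 0.11, 0.0166) rose, as did Lrp4 (0.32 ± 0.08, 0.0133), the agrin co-receptor of the neuromuscular junction. Wild-type tail bud replicate 3 was the lowest library for Lrp1 (266.5 CPM against 377.7 and 362.0) and Lrp2 (86.5 against 120.8 and 112.4). It was also the lowest for Lrp4 (99.2 against 124.0 and 113.2). Every Full-KO library of these genes still lay above every wild-type one. Genes of the lists were not refitted with single libraries left out. The Wnt co-receptor Lrp6, beyond the 4 named by rule, rose by 0.22 ± 0.06 (0.0214). In heart 0 of 8 passed with edgeR and 2 with DESeq2, with 4 at an unadjusted p under 0.05 and a median of 0.12 (0.0025 over all genes; 2.61% called higher). In the rest Lrp2 (0.53 ± 0.10, 0.00477) and Sorl1 (0.32 ± 0.06, 0.000572) rose, 2 of 8 (3 with DESeq2, and 5 of 9 with no filter on low counts), with a median of 0.18 (−0.0032 over all genes; 4.62% called higher). In the family model Sorl1 rose with the loss of miR-92 in the rest (0.24 ± 0.04, 0.00045), the 1 of 8 called there against 3.07% of all genes. In tail bud 1 of 8 also had a higher called miR-92 term, where 2.6% of all genes were called. None of the 8 had a called miR-17 term in any tissue with edgeR. The shares of all genes were 4.7%, 1.76% and 5.1% in tail bud, heart and rest, so 0 of 8 is near them.

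Among 16 ligands, chaperones and adaptors of the receptors and of Reelin signalling, 1 was called in the Full-KO tail bud, a share near the 5.93% of all genes called higher there. It was Yes1, a Src family kinase of the pathway (0.23 ± 0.05, edgeR adjusted p = 0.00812), and the median was 0.02. In heart 0 of 16 passed with edgeR or DESeq2 and 1 with no filter, with 2 at an unadjusted p under 0.05 and a median of 0.05. In the rest Yes1 (0.20 ± 0.05, 0.00764) and the matrix glycoprotein Thbs1, a ligand of both receptors (0.56 ± 0.09, 0.000645), rose, and the exchange factor Rapgef1 fell by 0.16 ± 0.05 (0.0439), 3 of 16 where 6.66% of all genes were called in either direction, with a median of 0.06. Yes1 also had miR-17 terms of 0.30 ± 0.03 in tail bud (1.08e-06) and 0.33 ± 0.04 in the rest (2.95e-07).

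Next were the partners with which Mylip or its substrates are ubiquitinated and sorted. Of 8 genes, 2 rose in the Full-KO tail bud, the deubiquitinase Usp8 (0.17 ± 0.05, edgeR adjusted p = 0.0405) and the ESCRT-I subunit Tsg101 (0.18 ± 0.05, 0.0251), against 5.93% of all genes called higher, and with no filter on low counts 1 was called. Usp8 (0.15 ± 0.04, 0.0161) and Ube2d1, a ubiquitin-conjugating enzyme that serves Mylip (0.18 ± 0.05, 0.0134), rose in the rest, where 4.62% of all genes were called higher. The medians were 0.04, 0.04 and 0.05 in tail bud, heart and rest. In heart 0 of 8 passed with edgeR or DESeq2, and 0 had an unadjusted p under 0.05.

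Of 14 LXR factors and LXR target genes, 3 rose and 2 fell in the Full-KO tail bud, 1 rose in heart and 3 rose in the rest, where 10.4%, 3.91% and 6.66% of all genes were called in either direction. The medians were 0.05, 0.13 and 0.12. With no filter on low counts the counts were 3 higher and 0 lower in tail bud, 4 higher in heart, and 6 higher and 1 lower in the rest. Nr1h2, which encodes LXRβ, rose in all 3 tissues by 0.26 ± 0.06, 0.25 ± 0.06 and 0.32 ± 0.06 (edgeR adjusted p = 0.0067, 0.0221 and 0.000418). Its partner in dimers Rxrb rose in the rest (0.18 ± 0.05, 0.0171). The cholesterol exporter Abca1 rose in tail bud (0.59 ± 0.13, 0.00737), with miR-17 terms of 0.47 ± 0.09 there (0.00309) and 0.34 ± 0.07 in heart (0.0167). Arl4c, a small GTPase under LXR control, rose in tail bud (0.35 ± 0.09, 0.0119) and in the rest (0.34 ± 0.05, 5.36e-06), where its miR-17 term was 0.36 ± 0.03 (1.06e-08). The 2 that fell in tail bud were Nr1h3, which encodes LXRα (−0.52 ± 0.16, 0.0353), and Rxra (−0.19 ± 0.06, 0.0425), both beyond the genes named by rule and neither called with no filter. Of 3 myosin regulatory light chain genes, the other protein that gave Mylip its name, Myl12a fell in the Full-KO tail bud by 0.21 ± 0.06 (0.0199). Its libraries there held 141.7, 146.8 and 140.4 CPM, against 156.2, 154.4 and 181.5 in Wild-type, where replicate 3 was the highest. In heart and rest 0 of the 3 genes were called in Full-KO by edgeR or DESeq2, with 0 at an unadjusted p under 0.05, and with no filter 1 was called higher in the rest. In the family model Myl9, named here after its value was seen, rose with the loss of miR-17 in the rest (0.43 ± 0.10, 0.0232). It was the 1 of 3 called for miR-17 there, where 5.1% of all genes were called.

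Genes whose group means followed those of each member most closely were found over 24 group means, each centred on its tissue, among 11690 genes. These points share embryos and libraries, and the values are descriptions. Mylip was followed by Tnrc6a, a GW182 protein of the microRNA silencing complex (Pearson r = 0.909), the torsin gene Tor1b (0.901), Efr3a (0.891), the torsin activator gene Tor1aip2 (0.888) and the repressor gene Rest (0.875). Vldlr was followed by the autophagy gene Atg16l1 (0.920), the tissue factor gene F3 (0.919), Fjx1 (0.919), the caspase inhibitor gene Xiap (0.917) and Mospd2 (0.915). The closest to Lrp8 were less close, among them Srebf2, the master regulator of sterol synthesis (0.736), the spindle gene Spag5 (0.686), the desaturase gene Scd1 (0.675) and Rimklb (0.671). Between the members r was 0.628 for Mylip and Vldlr, 0.388 for Mylip and Lrp8 and 0.200 for Vldlr and Lrp8.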

How the data were processed

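The authors deposited raw read counts per gene, as whole numbers, in 1 table of 37620 genes and 71 libraries. The submitters' processing notes name featureCounts (Subread 1.4.2), STAR 2.3.0 and SAMtools 0.1.14, and the mm9 (NCBIM37) build. Strand setting and the treatment of reads with several matches: not given in the sources used here. Symbols, exon lengths and untranslated regions came from GENCODE on GRCm38 (32897 IDs matched), a later build than the counts. Each tissue was fitted with edgeR 4.0.16 (R 4.3.3; limma 3.58.1): a filterByExpr filter, TMM normalization, robust quasi-likelihood tests and Benjamini-Hochberg adjustment over all genes (17009, 16750 and 17512 tested in tail bud, heart and rest), checked on simulated counts. The biological coefficient of variation was 8.74%, 8.87% and 6.47%. The family model used 4 additive terms over the 6 partial alleles. Intervals of 95% are the estimate ± 1.96 SE, with SE from the F statistic. They are normal approximations, somewhat narrower than intervals that allow for the degrees of freedom of the test. Alternatives were DESeq2 1.42.0, its size factors, no filter on low counts, the 2 groups alone, all 8 genotypes in the family model, a replicate block and leaving out each library. Replicate pairs all differed by more than counting noise (70 pairs, lowest chi-square per degree of freedom 2.66). The edgeR tests set each difference against a spread between libraries. That spread is estimated over all groups of a fit, with information shared across genes. Each gene list contributed up to 4 members past an adjusted p of 0.05 in Full-KO, by smallest p, and each member the 5 genes of most similar pattern (mean log2 CPM of at least 2, prior count 2), of which 1 is not reported here. The members and lists were chosen with earlier results of these data known. Figures were drawn with Python 3.11.15 and matplotlib 3.10.9.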

Additional observations from a re-analysis of the deposited data

How the results depend on the processing

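Among Mylip, Vldlr and Lrp8, 33 of 162 results were called, and under the replicate block the same 33 were called, 0 lost and 0 gained. Replicate numbers were not treated as pairs. Across genotypes, same-numbered libraries deviated together (correlation over 0.1) in 31 of 84, 15 of 84 and 20 of 77 pairs in tail bud, heart and rest. With different numbers it was 59 of 168, 51 of 168 and 49 of 154 pairs. Within a genotype, 130 of 140 comparisons put a library closest to its own number in another tissue, a hint from the data only. Median correlations between tissues were 0.22 to 0.30 with the same number and −0.16 to −0.11 with different numbers. The wild-type tissue tests and the differences of effects between tissues treated these libraries as independent. In the fit over 71 libraries the replicate block gave all genotypes the same effect per number. It could therefore not check pairing within a genotype there. DESeq2 lost 0 calls and gained 7 over 157 results, no filter on low counts lost 2 and gained 14 over 162, DESeq2 size factors lost 1 of 138, and fitting only the 2 groups lost 4 and gained 3 over 93, named beside their results above.

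Mylip gained its miR-92 term in tail bud with DESeq2 (0.23), and with all 8 genotypes its miR-19 term in heart (0.40) and miR-92 term in the rest (0.22), while its heart miR-18 term turned to 0.021. Vldlr gained its miR-17 term in the rest with DESeq2 (0.29), and with no filter that term (0.30) and the miR-18 term there (0.21), and lost the miR-17 term in tail bud (0.38). Its heart step from Delta_17_18 to Delta_17_18_92 turned to 0.017, and the heart minus tail bud value of that step to 0.000187. Lrp8 with no filter was called in Full-KO heart (0.41) and rest (0.23), with all 8 genotypes its heart miR-19 and miR-92 terms turned to 0.097 and 0.041, and with DESeq2 the step from Delta_17_18 to Delta_17_18_92, heart minus tail bud, turned to −0.017. The cause of these changes was not tested.

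Calls of single alleles and of the step from Delta_18 to Delta_17_18 that changed when 1 library was left out are given beside those results above. The ranges for other changed calls, and for changed signs, were as follows. For Mylip: wild-type heart minus rest −0.35 to −0.17; miR-18 term −0.095 to 0.012 in heart and −0.023 to 0.076 in the rest; miR-19 term in the rest 0.36 to 0.47; miR-92 term in tail bud 0.18 to 0.26; Delta_17_18 minus Delta_17 in heart −0.081 to 0.095; Delta_17_18_92 minus Delta_17_18 in heart −0.075 to 0.18 and in the rest −0.029 to 0.15; Delta_18 in the rest −0.077 to 0.10. For Vldlr: Full-KO 0.51 to 0.64 in tail bud and 0.54 to 0.77 in the rest; miR-17 term 0.36 to 0.40, 0.42 to 0.52 and 0.24 to 0.33 in tail bud, heart and rest; miR-19 term −0.28 to 0.19, −0.15 to 0.15 and −0.17 to 0.28; Delta_19 −0.19 to 0.28, −0.12 to 0.17 and −0.15 to 0.30; Delta_17_18_92 minus Delta_17_18 in heart −0.085 to 0.10; Full-KO minus Delta_17_18_92 in heart −0.032 to 0.10 and in the rest −0.20 to 0.063. For Lrp8: Full-KO in heart 0.25 to 0.56; miR-19 term −0.055 to 0.11, −0.074 to 0.031 and −0.16 to 0.14; miR-92 term in heart −0.055 to 0.022; miR-18 term in the rest −0.026 to 0.10; Delta_17_18 minus Delta_17 −0.18 to 0.0076, −0.069 to 0.071 and −0.099 to 0.11; Delta_17_18 minus Delta_18 in tail bud −0.18 to 0.015; Delta_17_18 in tail bud −0.076 to 0.12; Delta_17_18_92 minus Delta_17_18 in tail bud −0.014 to 0.18 and in the rest −0.16 to 0.059; Full-KO minus Delta_17_18_92 in heart −0.074 to 0.20 and in the rest −0.043 to 0.18.

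Over all genes, counts of called genes moved by more than 1.5 times in these cases. In heart Full-KO went from 655 to 1003 with no filter, and with DESeq2 miR-17 went from 291 to 449, miR-18 from 4 to 30 (19 with no filter), miR-19 from 119 to 340 and miR-92 from 171 to 426. In the rest with no filter miR-17 went from 886 to 1363, miR-18 from 70 to 584 (142 with DESeq2), miR-19 from 202 to 433 and miR-92 from 534 to 1006. In tail bud with DESeq2 miR-18 went from 57 to 201 (90 with no filter) and miR-19 from 187 to 298.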
